A study of Mus musculus with 11 samples.

Results

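The 10 genes described here are grouped as structural genes of the photoreceptor outer segment and of the matrix around it. Tulp1 and Reep6, which act in protein transport, are counted with them. They were chosen by name: the rows of the deposited gene count table whose Ensembl identifiers map to Prph2, Rom1, Prcd, Reep6, Rp1, Rp1l1, Fscn2, Tulp1, Impg1 and Impg2. All 10 were found among 37991 genes, and all 10 passed the filter on low counts, which left 17099 genes for testing. The table holds 11 libraries, each from the right retina of 1 mouse at postnatal day 24. Mice of the rd10 strain, labelled B6.CXB1-Pde6brd10/Jrd10, carry a mutant allele of Pde6b, a subunit of the rod phosphodiesterase. Of these, 3 received GSK2879552 (GSK), an inhibitor of the histone demethylase LSD1, at 4.2 mg/kg, and 3 received saline. The wild-type mice were C57Bl/6J, of which 3 received GSK at the same dose and 2 received saline. All 11 mice were injected intraperitoneally every day from day 9 to day 24, so every group shares the injections. Because the strain label differs along with the Pde6b allele, the allele and other differences between these strains cannot be told apart. GSK was given to the whole animal, and whole retina was sequenced.

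Photoreceptors renew their outer segment throughout life by adding new membrane discs at its base. The tetraspanins peripherin-2 and ROM1 hold the rims of the discs, a microtubule axoneme carrying RP1 runs along the stack, and proteoglycans of the interphotoreceptor matrix surround it. Mutations in many of these genes cause retinitis pigmentosa or related dystrophies in humans, and in rd10 mice the rods degenerate in the first weeks of life.

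Promoter sequences are shown for 4 of the 10 genes because these 4 share a short motif. All 10 genes fell in rd10 saline retina and rose with GSK in rd10. Impg2, which is among those shown, lay farthest from the median profile of the 10 over the libraries. The RefSeq table (GRCm38.p6) held the 250 bases before the start of 7 of the genes, Prph2, Rom1, Prcd, Fscn2, Tulp1, Impg1 and Impg2. The core of the motif bound by the photoreceptor homeodomain factor CRX, TAATC, was searched on both strands, where it reads GATTA on the other. It lay in 4 of these 7 windows and in 19.8% of 32817 promoter windows of the same length. The longer form TAATCC, which contains the core, was in 0 of the 7 windows and in 6.25% of all windows. TGCTGA, part of the motif of the rod factor NRL, was in 0 of the 7 and in 16.1% of all windows. A match is a description of the letters and not of binding. Capitals mark each core, and each sequence reads 5′ to 3′ on the strand of its gene. Prph2 lies on the plus strand (chr17:46910228-46910477), Prcd on the plus strand (chr11:116656858-116657107), Impg1 on the minus strand (chr9:80465439-80465688) and Impg2 on the plus strand (chr16:56204063-56204312).
Prph2: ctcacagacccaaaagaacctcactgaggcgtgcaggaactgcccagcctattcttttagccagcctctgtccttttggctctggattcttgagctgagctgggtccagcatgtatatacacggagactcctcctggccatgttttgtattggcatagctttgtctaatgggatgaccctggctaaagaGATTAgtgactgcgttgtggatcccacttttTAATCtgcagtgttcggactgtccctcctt
Prcd: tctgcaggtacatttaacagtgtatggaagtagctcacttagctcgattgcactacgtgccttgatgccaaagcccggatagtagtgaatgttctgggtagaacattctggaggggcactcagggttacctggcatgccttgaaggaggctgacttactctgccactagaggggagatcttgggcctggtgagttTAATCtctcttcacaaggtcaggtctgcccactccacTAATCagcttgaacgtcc
Impg1: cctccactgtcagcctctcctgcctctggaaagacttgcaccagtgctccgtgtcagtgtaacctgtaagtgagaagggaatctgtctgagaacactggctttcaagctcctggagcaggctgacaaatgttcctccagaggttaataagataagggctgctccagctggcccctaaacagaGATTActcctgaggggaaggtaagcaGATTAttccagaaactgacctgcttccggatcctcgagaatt
Impg2: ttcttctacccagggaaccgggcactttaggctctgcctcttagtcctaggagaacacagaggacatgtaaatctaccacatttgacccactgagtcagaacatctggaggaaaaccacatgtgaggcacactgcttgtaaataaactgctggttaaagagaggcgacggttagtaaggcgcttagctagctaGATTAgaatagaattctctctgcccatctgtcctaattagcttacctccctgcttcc
The cores began 61 and 30 bases before the start of Prph2, 55 and 18 before that of Prcd, 68 and 42 before that of Impg1, and 57 before that of Impg2.

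Libraries held between 19657030 and 28053367 counts. Levels are CPM, read counts scaled to a common library size by TMM, given for replicates 1, 2 and 3 of a group, and the mouse is the unit of every n. Pde6b was at 991, 1381 and 1757 CPM in rd10 GSK and 332, 333 and 422 CPM in rd10 saline, against 2214 to 2282 CPM in wild-type GSK and 2231 and 2301 CPM in wild-type saline. Kdm1a, which encodes LSD1, was at 93.6, 94.6 and 104 CPM in rd10 GSK and at 88.9, 86.3 and 83.2 CPM in rd10 saline. It was at 96.6 to 105 CPM in wild-type GSK and at 96.0 and 95.1 CPM in wild-type saline, so the rd10 saline libraries were the lowest. Markers of rods (13 genes) summed to 26765 to 51712 CPM in rd10 GSK, 9003 to 10967 CPM in rd10 saline, 62304 to 65027 CPM in wild-type GSK and 66365 to 68032 CPM in wild-type saline, and none was at 0 in any library. Cone markers (10 genes) summed to between 1499 and 2068 CPM in all libraries, a sum over markers that moved in different directions. Their median was 57.2%, 78.4% and 82.6% of the wild-type saline mean in rd10 GSK, and 88.3% to 93.4% in rd10 saline. In rd10 GSK replicate 1 single cone markers ran from 31.9% to 226%. Lens transcripts stood apart in 2 libraries, where they summed to 6937 CPM (rd10 GSK replicate 2) and 689 CPM (wild-type saline replicate 2). The other 9 held 4.64 to 16.7 CPM, with Lim2 at 0 in all 11. Xist, a transcript of the inactive X chromosome chosen after its values were seen, was under 1 CPM in rd10 GSK replicates 1 and 3, rd10 saline replicate 2 and wild-type GSK replicate 2, and at 780.5 CPM or more in the other 7. In bulk retina, fewer cells of a type and less RNA per cell cannot be told apart.

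All 10 genes had lower levels in rd10 retina given saline than in wild-type retina given saline, and higher levels in rd10 retina given GSK than in rd10 retina given saline. In rd10 saline against wild-type saline, all 10 fell, with a median log2 change of -2.13, where 19.0% of all tested genes fell and their median was 0.02. In rd10 GSK against rd10 saline, all 10 rose, with a median of 1.68, where 17.6% of all tested genes rose and their median was 0.01. The libraries of the compared groups did not overlap for any of the 10 in either comparison, as for 29.7% of all tested genes in the first (lower) and 22.5% in the second (higher). These calls use edgeR's quasi-likelihood test with p-values adjusted by Benjamini-Hochberg over all tested genes and a threshold of 0.05. Both counts stayed at 10 without rd10 GSK replicate 2 and wild-type saline replicate 2, the libraries with lens transcripts. Scaling to inner retina genes moved the median of all tested genes to 0.30 in the second comparison and its split to 7840 higher and 430 lower calls, against 3014 and 2607 with TMM. All 10 rose there too, with a median of 1.96. The 2 comparisons share the rd10 saline libraries, so their opposite signs are not independent of each other.

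**Figure D1:**
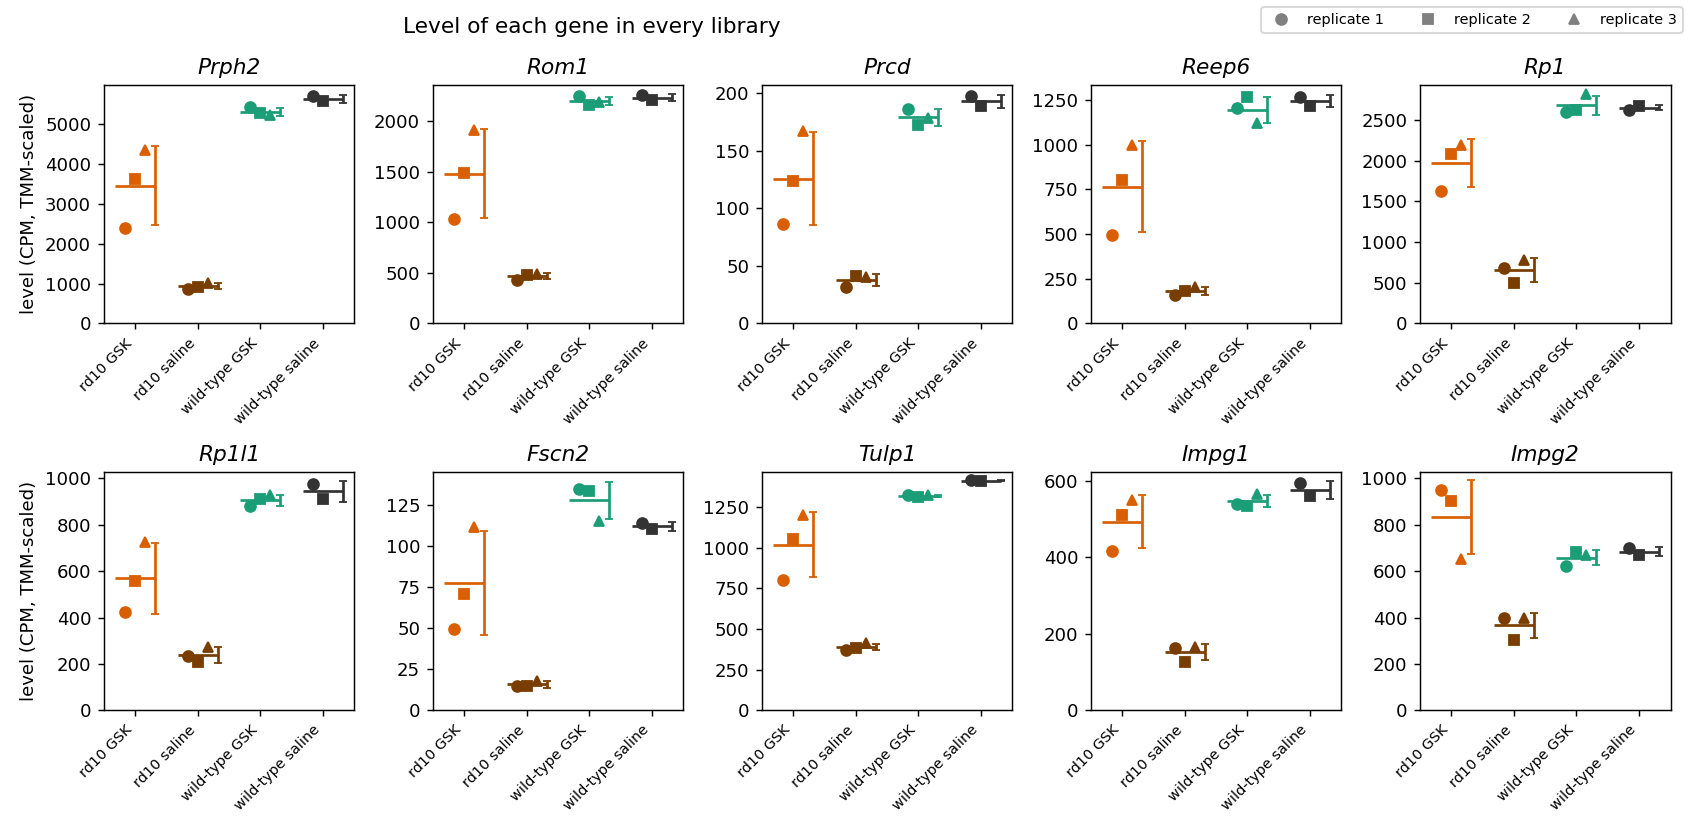
Levels of the 10 genes in every library, in CPM from 0, with rd10 GSK leftmost, then rd10 saline, wild-type GSK and wild-type saline, points for mice, a line for each group mean and a bar for its SD. In 9 of the 10 genes the rd10 GSK libraries lie between those of rd10 saline and the upper end of the wild-type range, and Impg2 reaches 951 CPM in rd10 GSK against at most 699 CPM in wild-type saline.

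The tetraspanins of the disc rim were the most abundant of the 10 per length. Prph2, peripherin-2, was at 2403, 3631 and 4349.7 CPM in rd10 GSK, 876, 915 and 1024 CPM in rd10 saline, 5428, 5285 and 5232 CPM in wild-type GSK, and 5713 and 5573 CPM in wild-type saline. No rd10 saline library exceeded 1024 CPM, and every rd10 GSK library stood between those and the wild-type libraries. It fell in rd10 saline against wild-type saline (log2 change -2.59 ± 0.19 SE, edgeR adjusted p = 8.73e-06) and rose in rd10 GSK against rd10 saline (1.88 ± 0.18, adjusted p = 6.01e-05). Rom1, its partner in the rim complexes, was at 1032, 1492 and 1912 CPM in rd10 GSK, 431, 482 and 491 CPM in rd10 saline, 2247, 2159 and 2191 CPM in wild-type GSK, and 2256 and 2205 CPM in wild-type saline. The rd10 groups lay apart from each other and from wild type, while the wild-type groups overlapped. Rom1 fell by 2.25 ± 0.19 on the log2 scale in rd10 saline (edgeR adjusted p = 2.24e-05) and rose by 1.66 ± 0.18 with GSK in rd10 (adjusted p = 0.000145).

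Within a library the ratio of Prph2 to Rom1 does not depend on the scaling. Its log2 value was 1.22, 1.28 and 1.19 in rd10 GSK, 1.02, 0.93 and 1.06 in rd10 saline, 1.27, 1.29 and 1.26 in wild-type GSK, and 1.34 and 1.34 in wild-type saline. The rd10 saline libraries had the lowest ratios, 0.34 below wild-type saline and 0.23 below rd10 GSK (difference of means). Wild-type GSK was 0.07 below wild-type saline, and the groups did not overlap in any of these 3 comparisons. Each exact two-sided permutation p was 0.1, the smallest that 3 libraries against 3 or against 2 can give.

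Prcd and Reep6 act in the membranes of the outer segment and of the cell body that supplies it. Prcd encodes a small protein of disc membranes, mutated in progressive rod-cone degeneration of dogs and humans. It was at 86.6, 123 and 167 CPM in rd10 GSK, 31.6, 41.0 and 40.0 CPM in rd10 saline, 186, 172 and 179 CPM in wild-type GSK, and 197 and 189 CPM in wild-type saline. The lowest rd10 GSK library was above every rd10 saline library and the highest was below every wild-type library. Prcd fell in rd10 saline (-2.36 ± 0.23, edgeR adjusted p = 8.77e-05) and rose with GSK in rd10 (1.74 ± 0.21, adjusted p = 0.000466). Its exons share 201 bases with Cygb on the opposite strand (GENCODE M21), which reached 250.1 CPM. Reads of the pair may be mixed, since the strand setting of the counting is unknown.

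Reep6, an endoplasmic reticulum protein needed for protein transport in mouse rods, was at 493, 803 and 999 CPM in rd10 GSK, 161, 183 and 202 CPM in rd10 saline, 1202, 1265 and 1118 CPM in wild-type GSK, and 1267 and 1218 CPM in wild-type saline. Its highest rd10 saline library was below the lowest rd10 GSK library, and no rd10 library reached the wild-type range. Reep6 fell by 2.77 ± 0.24 in rd10 saline (edgeR adjusted p = 3.81e-05), to 14.7% of the wild-type saline mean. It rose by 2.07 ± 0.22 with GSK in rd10 (adjusted p = 0.000205).

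The axoneme genes Rp1 and Rp1l1 encode related microtubule-binding proteins with doublecortin domains. Rp1 was at 1633, 2088 and 2189 CPM in rd10 GSK, 686, 502 and 785 CPM in rd10 saline, 2605, 2624 and 2817 CPM in wild-type GSK, and 2629 and 2675 CPM in wild-type saline. Rp1l1 was at 422, 558 and 728 CPM in rd10 GSK, 235, 206 and 274 CPM in rd10 saline, 879, 912 and 927 CPM in wild-type GSK, and 977 and 913 CPM in wild-type saline. For both, the 3 rd10 GSK libraries lay between the rd10 saline and the wild-type libraries. They fell by similar amounts in rd10 saline, Rp1 by 2.01 ± 0.17 (edgeR adjusted p = 1.35e-05) and Rp1l1 by 1.99 ± 0.19 (adjusted p = 4.69e-05). With GSK in rd10, Rp1 rose by 1.58 ± 0.15 (adjusted p = 6.3e-05) and Rp1l1 by 1.25 ± 0.17 (adjusted p = 0.000646).

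The log2 ratio of Rp1 to Rp1l1 was 1.95, 1.90 and 1.59 in rd10 GSK, 1.54, 1.29 and 1.52 in rd10 saline, 1.57, 1.52 and 1.60 in wild-type GSK, and 1.43 and 1.55 in wild-type saline. In rd10 GSK it was above every rd10 saline library, by 0.37 on average (exact two-sided permutation p = 0.1, the smallest possible). The difference between rd10 saline and wild-type saline was -0.04 (exact p = 0.8), which turned to 0.04 without rd10 saline replicate 2 and to 0.02 without wild-type saline replicate 2.

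Fscn2, the photoreceptor fascin that bundles actin filaments, was the least abundant of the 10 per length. It was at 49.2, 70.8 and 112 CPM in rd10 GSK, 14.6, 14.5 and 18.0 CPM in rd10 saline, 135, 134 and 115 CPM in wild-type GSK, and 114 and 110.1 CPM in wild-type saline. The rd10 GSK libraries were widely spread, and replicate 3 lay within the wild-type saline range. Its fall in rd10 saline (-2.83 ± 0.29, edgeR adjusted p = 0.000151) and its rise with GSK in rd10 (2.30 ± 0.28, adjusted p = 0.0005) were the largest of the 10. Its standard errors were also the largest of the 10.

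Tulp1, a tubby-family protein needed for moving proteins to the outer segment, was at 804, 1053 and 1203 CPM in rd10 GSK, 374, 380.5 and 414 CPM in rd10 saline, 1325, 1314 and 1323 CPM in wild-type GSK, and 1415 and 1412 CPM in wild-type saline. No 2 of these groups overlapped. Tulp1 fell by 1.86 ± 0.13 in rd10 saline (edgeR adjusted p = 2.37e-06) and rose by 1.39 ± 0.12 with GSK in rd10 (adjusted p = 1.4e-05).

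Impg1 and Impg2 encode the proteoglycans of the interphotoreceptor matrix, the first secreted and the second anchored in the membrane. Impg1 was at 418, 512 and 551 CPM in rd10 GSK, 163, 127 and 166 CPM in rd10 saline, 541, 535 and 566 CPM in wild-type GSK, and 594 and 560.1 CPM in wild-type saline. Replicate 3 of rd10 GSK lay within the wild-type GSK range, and all rd10 GSK libraries were below wild-type saline. Impg1 fell by 1.92 ± 0.12 in rd10 saline (edgeR adjusted p = 1.98e-06) and rose by 1.70 ± 0.11 with GSK in rd10 (adjusted p = 4.25e-06).

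Impg2 retained the largest share of its wild-type level in rd10 saline. It was at 951, 901 and 653 CPM in rd10 GSK, 397, 304 and 397 CPM in rd10 saline, 621, 683 and 668 CPM in wild-type GSK, and 699 and 669 CPM in wild-type saline. Its rd10 saline mean was 53.6% of the wild-type saline mean, against 14.0% to 27.5% for the others. In rd10 GSK replicates 1 and 2 it exceeded every wild-type library, and only replicate 3 lay within their range. Its fall in rd10 saline was the smallest of the 10 (-0.90 ± 0.15, edgeR adjusted p = 0.00111), as was its rise with GSK in rd10 (1.19 ± 0.14, adjusted p = 0.000196).

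The log2 ratio of Impg1 to Impg2 showed the divergence within each library. It was -1.19, -0.81 and -0.24 in rd10 GSK, -1.28, -1.25 and -1.26 in rd10 saline, -0.20, -0.35 and -0.24 in wild-type GSK, and -0.23 and -0.26 in wild-type saline. The rd10 saline libraries were tightly grouped 1.02 below wild-type saline (exact two-sided permutation p = 0.1, the smallest possible). The rd10 GSK libraries ran from just above the rd10 saline values to the wild-type values, with a mean 0.52 above rd10 saline (exact p = 0.1). Without rd10 GSK replicate 3 that difference was 0.26, and without replicate 1 it was 0.74. In wild-type retina the GSK mean differed from the saline mean by -0.02 (exact p = 0.9).

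**Figure D2:**
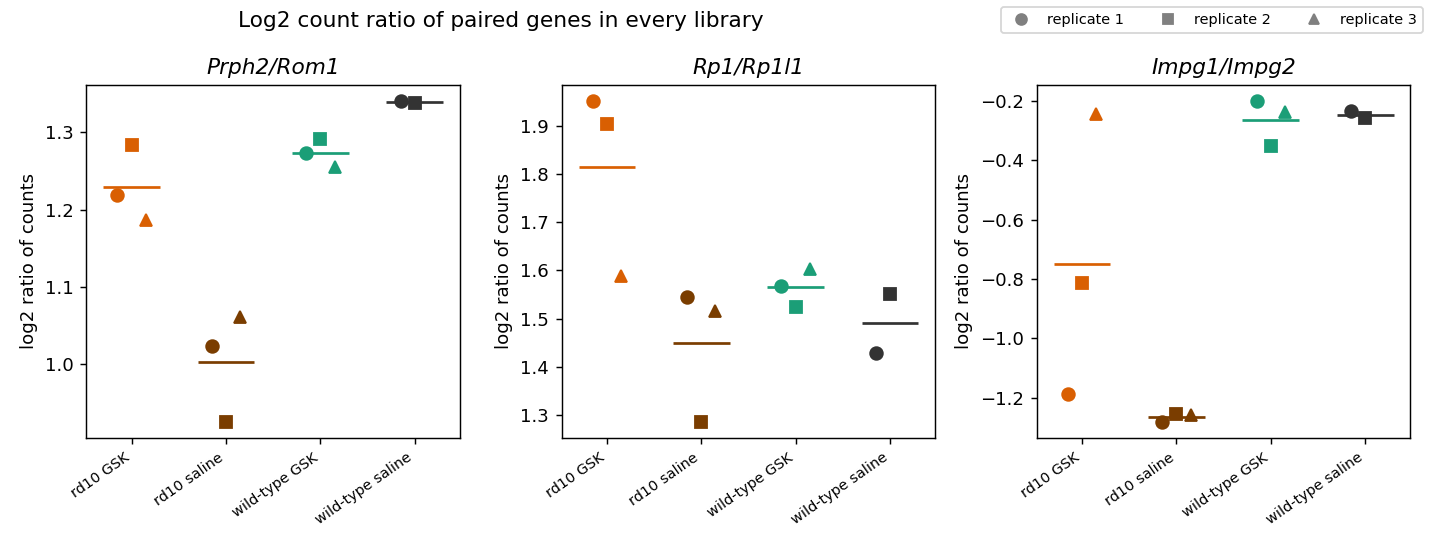
Log2 ratio of 2 related genes in each library for Prph2 to Rom1, Rp1 to Rp1l1 and Impg1 to Impg2, with rd10 GSK leftmost and wild-type saline rightmost and 1 point per mouse. The Impg1 to Impg2 ratio lies near -1.26 in all rd10 saline libraries and spreads over -1.19, -0.81 and -0.24 in rd10 GSK.

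None of the 10 passed the same test in wild-type retina. In wild-type GSK against wild-type saline, 0 of 10 passed and 0 had an unadjusted p under 0.05, where 0.532% of all tested genes were called by edgeR. DESeq2 and limma-voom, which called 193 and 65 of all genes, also called 0 of the 10. Log2 changes ran from -0.11 (Prcd, 95% interval -0.62 to 0.40) to 0.19 (Fscn2, -0.45 to 0.83), with a median of -0.06. The narrowest intervals were those of Impg1 (-0.08, interval -0.35 to 0.20) and Tulp1 (-0.10, -0.38 to 0.18), and smaller differences than these intervals span were not detectable with 3 and 2 mice. Prph2, Tulp1, Fscn2 and Prcd had groups that did not overlap, which is 4 of 10 where 34.4% of all tested genes did so. Under scaling to inner retina genes, which moved the median of all tested genes to 0.10, 7 of the 8 negative changes turned positive, and none of the 10 passed.

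The response to GSK differed between the genotypes for all 10. The log2 change with GSK in rd10 minus that in wild type was positive and passed for 10 of 10, where 7.49% of all tested genes passed in that direction. The differences ran from 1.25 ± 0.21 for Impg2 (edgeR adjusted p = 0.00448) and 1.31 ± 0.26 for Rp1l1 (adjusted p = 0.0107) to 2.105 ± 0.39 for Fscn2 (adjusted p = 0.0108) and 2.13 ± 0.32 for Reep6 (adjusted p = 0.00389). The smallest adjusted p was that of Impg1 (1.77 ± 0.17, adjusted p = 0.000141). Among the 13 rod markers 11 passed in the same direction, with a median of 1.84 over the 13. The interaction contains the rd10 GSK against rd10 saline change, so it is not separate from that comparison. Without both libraries with lens transcripts 6 of 10 passed, while the differences of the other 4 were 1.39 for Rp1l1, 2.20 for Fscn2, 1.91 for Prcd and 1.23 for Impg2. Without wild-type saline replicate 1 alone, Rp1l1 missed the threshold (1.27, adjusted p = 0.0527).

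**Figure D3:**
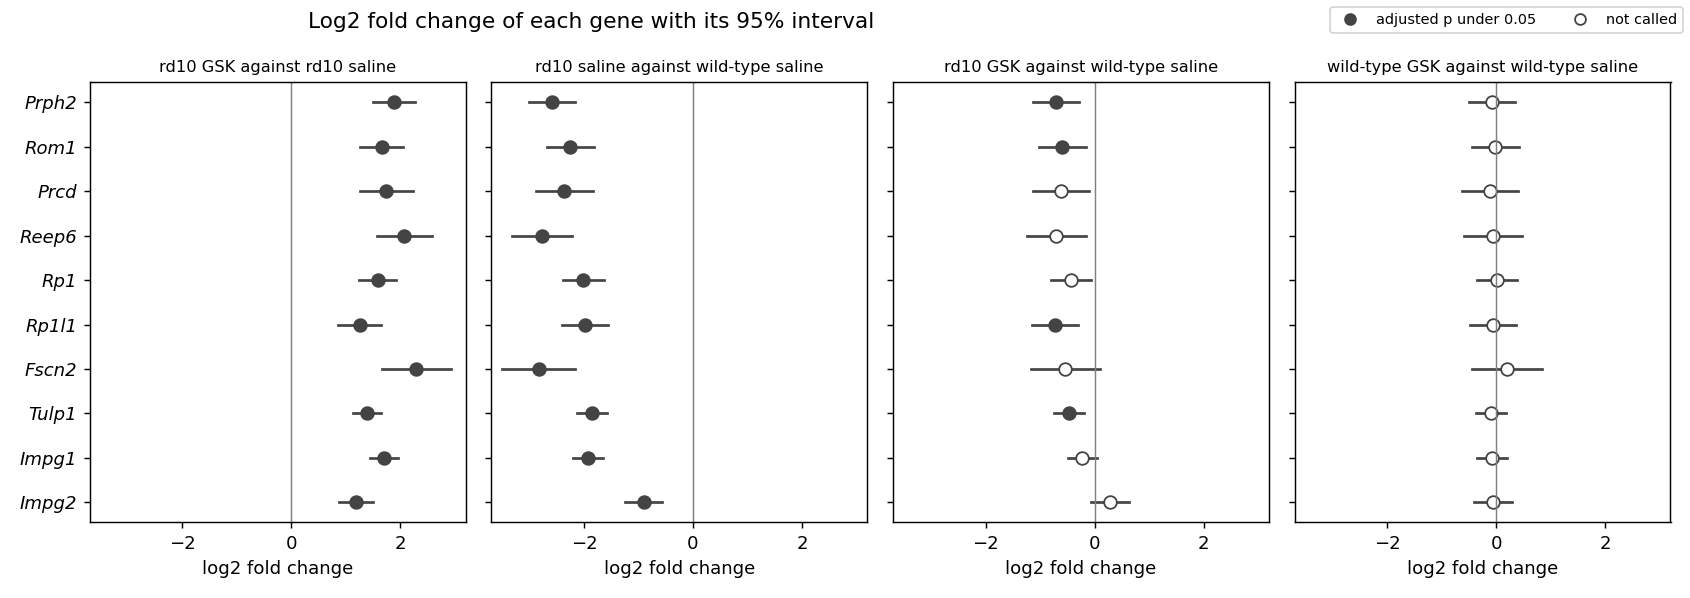
Log2 change of each of the 10 genes with its 95% interval in 4 comparisons, positive where the first-named group is higher, with filled points for adjusted p under 0.05. All 10 lie above 0 in rd10 GSK against rd10 saline (1.19 to 2.30) and below 0 in rd10 saline against wild-type saline (-2.83 to -0.90), and the wild-type values lie between -0.11 and 0.19.

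Mean levels in rd10 GSK retina were below those in wild-type retina for 9 of the 10 genes. Against wild-type GSK, 4 of 10 fell, where 10.9% of all tested genes fell: Prph2 (-0.62 ± 0.17, edgeR adjusted p = 0.0247), Rom1 (-0.57 ± 0.17, adjusted p = 0.0364), Rp1l1 (-0.67 ± 0.17, adjusted p = 0.0197) and Tulp1 (-0.37 ± 0.11, adjusted p = 0.0320). The values of Rp1 (-0.44), Reep6 (-0.64), Fscn2 (-0.73) and Prcd (-0.51) were of like size and did not pass, with adjusted p between 0.0526 and 0.0979. Impg1 was at -0.15 and Impg2 at 0.35 ± 0.14, the only positive value (adjusted p = 0.0934). Against wild-type saline the same 4 genes fell, by 0.71, 0.59, 0.73 and 0.47 in the same order, where 10.3% of all tested genes fell, and Impg2 was at 0.29 ± 0.16 (adjusted p = 0.207). These calls depend on single libraries. The number that fell against wild-type GSK was 1 without rd10 GSK replicate 2, 8 without rd10 GSK replicate 3 and 0 without any 1 of the wild-type GSK libraries. The number that fell against wild-type saline was 2 without rd10 GSK replicate 2, 7 without rd10 GSK replicate 3 and 0 without either wild-type saline library. Impg2 passed as higher without rd10 GSK replicate 3, at 0.49 against wild-type GSK (adjusted p = 0.00282) and 0.44 against wild-type saline (adjusted p = 0.0109). It also passed under inner retina scaling, at 0.53 (adjusted p = 0.0429) and 0.58 (adjusted p = 0.0379), where the median of all tested genes moved to 0.18 and 0.29. With DESeq2 it passed against wild-type GSK (0.34, adjusted p = 0.0485) and not against wild-type saline (0.28, adjusted p = 0.164).

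The rd10 GSK mice differed from each other in the same way for 9 of the 10 genes, which were lowest in replicate 1 and highest in replicate 3. The median of the 10 genes was 45.6%, 65.8% and 85.4% of the wild-type saline mean in rd10 GSK replicates 1, 2 and 3, and 22.1%, 21.4% and 25.4% in the rd10 saline libraries. Impg2 had the opposite order, at 139%, 132% and 95.4%. The median of the rod panel was 39.1%, 56.9% and 76.1% in the rd10 GSK libraries and 15.1%, 15.7% and 17.7% in the rd10 saline libraries. Microglial markers (10 genes, none at 0) summed to 303, 222 and 151 CPM in rd10 GSK and 501 to 598 CPM in rd10 saline, against 89.9 to 94.98 CPM in wild-type GSK and 88.2 to 90.1 CPM in wild-type saline. Müller glial markers (8 genes, none at 0) summed to 3554, 4009 and 5116 CPM in rd10 GSK and 6686 to 7648 CPM in rd10 saline, against 5588 to 5678 CPM in wild-type GSK and 4987 to 5169.9 CPM in wild-type saline. Pigment epithelium markers (10 genes, none at 0) summed to 89.9 to 131 CPM in rd10 GSK, 34.2 to 90.2 CPM in rd10 saline, 189 to 239 CPM in wild-type GSK and 73.6 to 172 CPM in wild-type saline. The markers of rods and microglia thus differed along with the 9 genes over these 3 mice, and they were not alone in this. Inner retina markers (20 genes) summed to 3055, 3266 and 3473 CPM in replicates 1, 2 and 3. Their median was 74.1%, 83.1% and 87.3% of the wild-type saline mean. The cone median had the same order (57.2%, 78.4% and 82.6%), but the cone sum did not (1499, 1798 and 1653 CPM). For Müller glia the sum rose from replicate 1 to 3, but the median marker did not. Relative to its wild-type saline mean, that median stood at 119%, 97.4% and 105.6% in replicates 1, 2 and 3. The lowest Müller marker stood at 30.5%, 52.1% and 68.4%, and the highest at 385%, 364% and 181%. The part of these cell markers in the result was not tested. Of the gap between the rd10 saline and wild-type saline means, the rd10 GSK mean had covered a median of 59.5% over the 10 genes, from 46.8% for Rp1l1 to 80.4% for Impg1 and 148% for Impg2. The same share had a median of 49.7% over the rod panel (31.7% to 63.3%).

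To ask which of the 10 departed from the middle of a rod panel, libraries were also scaled to the 13 rod markers, none of which is among the 10. On that scale nearly all other genes appear higher in rd10, so 98.5% of all tested genes were called higher in rd10 saline against wild-type saline and the counts here are read only as differences from the rod panel. Impg2 rose most, by 1.71 ± 0.27 (edgeR adjusted p = 4.71e-10), and stood at 389%, 280.4% and 314% of wild-type saline per rod transcript in the rd10 saline libraries. Tulp1 (0.75 ± 0.26, adjusted p = 0.00408), Impg1 (0.69 ± 0.27, adjusted p = 0.00963), Rp1l1 (0.62 ± 0.26, adjusted p = 0.0187) and Rp1 (0.59 ± 0.25, adjusted p = 0.0199) also rose. Where nearly all genes are called, the adjustment hardly changes a p-value. For Rp1 the unadjusted edgeR p was 0.0196, and for Impg2 with GSK in rd10, given below, it was 0.0428. Prph2 (0.02), Rom1 (0.36), Prcd (0.24), Fscn2 (-0.23) and Reep6 (-0.16) did not pass. Without rd10 saline replicate 1 or either wild-type saline library 2 of the 10 passed, and without both libraries with lens transcripts 1 passed. Impg2 passed under all 15 alternatives, at 1.58 to 1.82.

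With TMM the rod panel itself rose by 0.71 to 2.55 with GSK in rd10, and all 10 genes lay within that range (1.19 to 2.30). On the rod scale GSK moved few of the 10 in rd10. In rd10 GSK against rd10 saline Rp1l1 (-0.53 ± 0.23, edgeR adjusted p = 0.0235) and Impg2 (-0.47 ± 0.23, adjusted p = 0.0450) fell, where 95.1% of all tested genes fell. The number that fell was 0 without rd10 GSK replicate 2 or without rd10 saline replicate 1 or 3, 3 without rd10 GSK replicate 1 (1 other rose), and 1 without rd10 GSK replicate 3 or any 1 wild-type library. Against wild-type GSK, where 82.0% of all tested genes were called higher, Impg2 (1.22 ± 0.23, adjusted p = 2.17e-06) and Impg1 (0.63 ± 0.23, adjusted p = 0.0113) rose in rd10 GSK. Against wild-type saline, where 82.6% were called higher, Impg2 (1.25 ± 0.27, adjusted p = 3.13e-05) and Impg1 (0.64 ± 0.27, adjusted p = 0.0223) rose again. Impg2 passed under all 15 alternatives in both. Impg1 missed the threshold without wild-type GSK replicate 1 in the first (0.59, adjusted p = 0.0594) and without rd10 GSK replicate 2 in the second (0.61, adjusted p = 0.0601). It also missed it in the second without either wild-type saline library (0.66 and 0.60). Without both libraries with lens transcripts it missed it in both, at 0.64 in the first and 0.55 in the second. Without rd10 GSK replicate 3, Rp1 and Tulp1 passed as well, which made the count 4 in both comparisons.

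**Figure D4:**
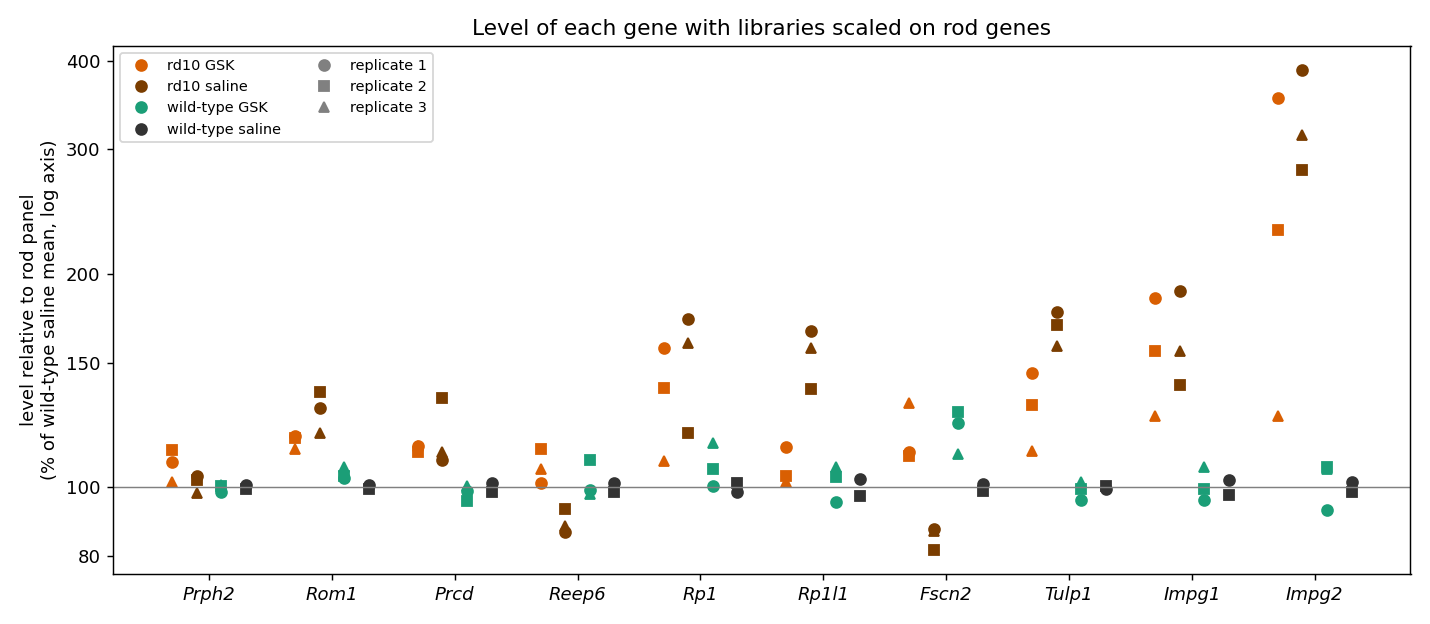
Level of each of the 10 genes as a percent of the wild-type saline mean on a log axis after scaling each library to the rod panel, with rd10 GSK leftmost and 1 point per mouse. Impg2 stands apart at 126% to 355% in rd10 GSK and 280.4% to 389% in rd10 saline, while Prph2 stays between 98.1% and 113% in both.

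Per kilobase of exon (GENCODE M21), the order of the levels in wild-type saline was Prph2 at 1879.8 CPM per kb, Rom1 at 1470.1, Reep6 at 496, Rp1 at 215, Tulp1 at 212, Impg1 at 159, Prcd at 126, Rp1l1 at 125, Impg2 at 73.7 and Fscn2 at 53.1. Only Prcd and Rp1l1 overlapped there as neighbours. The length merged all exons annotated for a gene, and the order under other lengths was not tested. In rd10 saline the order began with Prph2 at 312 and Rom1 at 308 CPM per kb, whose ranges overlapped, and ended with Prcd at 24.5 and Fscn2 at 7.44. Impg2, at 39.5, overlapped Impg1, at 41.9, in that group. In rd10 GSK Impg2 stood at 90.0 CPM per kb, above Prcd at 82.0 and Rp1l1 at 75.2, with overlapping ranges.

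Other genes of the outer segment moved in the same direction. Of 15 such genes 14 fell in rd10 saline against wild-type saline (median -1.45), where 19.0% of all tested genes fell, and 14 rose in rd10 GSK against rd10 saline (median 1.15), where 17.6% rose. Cnga1, the rod channel subunit, fell by 2.37 in rd10 saline and rose by 1.56 with GSK in rd10, and Abca4, the disc rim transporter of retinoids, fell by 2.28 and rose by 1.60. Of the 15, 3 are also in the rod panel. Mak, Ttll5 and Spata7 had rd10 GSK means above both wild-type means, like Impg2, and the others did not. Mak averaged 214 CPM in rd10 GSK and 92.7 CPM in rd10 saline, against 181 CPM in wild-type GSK and 194 CPM in wild-type saline. In rd10 GSK against either wild-type group, 0 of the 15 passed as higher. In wild-type GSK against wild-type saline 0 of the 15 passed, where 0.532% of all tested genes were called.

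Genes of the matrix and of retinal adhesion did not share a direction. Of 14, 4 rose and 7 fell in rd10 saline against wild-type saline, where 21.5% of all tested genes rose and 19.0% fell. With GSK in rd10 5 rose and 3 fell, where 17.6% of all tested genes rose and 15.2% fell. The 4 that rose in rd10 saline and the 3 that fell with GSK are near those shares. Vcan, the proteoglycan versican, and Cd44, a hyaluronan receptor, rose in rd10 saline by 3.18 ± 0.76 and 2.92 ± 0.54. Rbp3, the retinoid-binding protein of the interphotoreceptor matrix, averaged 8898 ± 604 CPM in rd10 GSK and 2893 ± 240.3 CPM in rd10 saline, against 7733 ± 197 CPM in wild-type GSK and 7563 ± 154 CPM in wild-type saline (SD), and rose by 1.62 ± 0.08 with GSK in rd10. Egflam, the matrix protein pikachurin of the photoreceptor synapse, rose by 1.16. In wild-type retina Hapln1, a hyaluronan link protein, was the single call (-0.80 ± 0.15, edgeR adjusted p = 0.0451), at 4.03 CPM in wild-type GSK against 7.00 CPM in wild-type saline.

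Relatives of Tulp1, Fscn2, Reep6 and Rp1 did not share a direction. Of 13 measured, 4 rose and 1 fell in rd10 saline against wild-type saline, where 21.5% of all tested genes rose and 19.0% fell. With GSK in rd10 2 rose and 4 fell, where 17.6% rose and 15.2% fell, and these few genes give no result for the relatives as a group. Tub, the tubby gene itself, fell by 1.18 in rd10 saline and rose by 0.73 with GSK in rd10. Tulp3, a tubby-like gene of cilia in many cells, rose by 0.98 in rd10 saline, as did Dclk2, a doublecortin-like kinase, by 0.42. Reep5 fell by 0.41 and Dcx, doublecortin, fell by 0.50 with GSK in rd10.

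The genes with the profile most like the median of the 10, by root mean square distance of log2 CPM over the 11 libraries, were Rgs9bp (0.071), Cngb1 (0.077), Wdr17 (0.086), Ppef2 (0.087) and Aqp1 (0.10), from 12198 candidates. Rgs9bp, the anchor of the regulator that ends transducin signalling, was at 64.2% of wild-type saline in rd10 GSK, 23.3% in rd10 saline and 99.3% in wild-type GSK. Among the 10 themselves Rom1 lay closest to that median (0.083) and Impg2 farthest (0.86).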

How the data were processed

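The authors deposited unnormalized read counts per gene for 11 libraries of polyA RNA, made with bcl2fastq, HISAT2 2.1.0, HTSeq and edgeR and the builds NCBIM37 and mm9, per the submitters' processing notes. Not given in the sources used here: HTSeq version, strand setting, annotation. Per the labels' protocols, 200 ng of total RNA with an integrity number above 7 entered a stranded mRNA kit. Gene names came from GENCODE M21 by Ensembl identifier (32919 of 37991 matched, and those unmatched held 0.627% of counts). The 10 genes and all gene lists were chosen with earlier results of these data known.

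Low counts were removed (filterByExpr, count 10, total 15), and the rest were TMM-scaled and fitted with edgeR 4.0.16 (R 4.3.3, robust quasi-likelihood, 1 coefficient per group, all 11 libraries, common biological coefficient of variation 0.129). P-values were adjusted by Benjamini-Hochberg over 17099 genes, with a threshold of 0.05. Errors after ± are SE for log2 changes and SD for levels. Pair ratios used counts + 0.5 and exact permutation. Replicates differed by more than sampling noise. Alternatives were RLE and inner retina scaling, no filter, DESeq2 1.42.0, limma-voom 3.58.1, a fit of only the groups compared, each library left out, both lens-bearing libraries left out, a replicate block and a pseudocount of 5. The test was checked on simulated data. Named genes were the 10, Pde6b, Kdm1a, up to 3 called genes per list with the largest change in each of 3 comparisons, and the 5 genes nearest the median profile. Mak, Ttll5 and Spata7 were named in addition, after their values were seen. Some named genes and 1 alternative rod panel are not reported here.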

Additional observations from a re-analysis of the deposited data

Results flagged for a closer look

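For each of the 10 genes the response to GSK differed between rd10 and wild-type retina by a test of the difference itself, the interaction term of the edgeR fit. The log2 change with GSK in rd10 minus that in wild type was 1.97 for Prph2, 1.68 for Rom1, 1.85 for Prcd and 2.13 for Reep6. It was 1.57 for Rp1, 1.31 for Rp1l1, 2.105 for Fscn2 and 1.49 for Tulp1. For the matrix genes it was 1.77 for Impg1 and 1.25 for Impg2. Of all tested genes, 7.49% passed in this direction. So did 11 of the 13 rod panel genes (median 1.84) and 12 of the 15 other outer segment genes (median 1.10), lists that share some genes. Each wild-type term rests on 2 saline mice.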

How the results depend on the processing

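All 10 genes passed in rd10 saline against wild-type saline and in rd10 GSK against rd10 saline under all 19 alternatives, and 0 passed in wild-type retina under all 19. The medians of the 10 ran from -2.23 to -2.09, 1.49 to 1.96 and -0.13 to 0.05. In the interaction 6 passed without both lens-bearing libraries, and 9 to 10 without single libraries.

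In rd10 GSK against wild-type GSK the number of the 10 that passed was 2 with no filter, 9 with DESeq2, 2 with only the groups compared, 0 without both lens-bearing libraries, and 0 to 9 without single libraries. Against wild-type saline it was 2, 7, 0 and 0 in those settings, 7 with the replicate block, and 0 to 8 without single libraries. On the rod scale it was 1 without both lens-bearing libraries in rd10 saline against wild-type saline (2 to 6 without single libraries), 1 in each comparison of rd10 GSK with wild type (1 to 4 in both), and for rd10 GSK against rd10 saline 1 with no filter, 0 without both lens-bearing libraries, and 0 to 4 without single libraries.

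The number of all genes called in rd10 saline against wild-type saline was 4081 without both lens-bearing libraries and 4435 to 7506 without single libraries. In rd10 GSK against rd10 saline it was 3588 with only the groups compared and 4359 to 6346 without single libraries. In wild-type retina, against 91, it was 151 with inner retina scaling, 193 with DESeq2, 916 with only the groups compared, 12 without both lens-bearing libraries and 12 to 182 without single libraries. It was 524 without both lens-bearing libraries in the interaction (864 to 3139 without single libraries) and 2213 in rd10 GSK against wild-type GSK (2515 to 5694). Against wild-type saline it was 7162 with inner retina scaling, 1573 with only the groups compared, 726 without both lens-bearing libraries and 1053 to 5319 without single libraries.

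Inner retina scaling moved the split of higher and lower calls to 146 and 5 in wild-type retina (76 and 15 with TMM), 2606 and 217 in the interaction (1280 and 851), 4571 and 542 in rd10 GSK against wild-type GSK (2625 and 1859), and 6853 and 309 against wild-type saline (2416 and 1764).

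Some changes near 0 turned sign, none of which had passed. Inner retina scaling, which shifted the median of all genes to 0.10 in wild-type retina and to 0.30 in rd10 GSK against rd10 saline, gave wild-type changes of 0.020 for Prph2, 0.087 for Rom1, 0.048 for Rp1l1, 0.0082 for Tulp1, 0.032 for Impg1, 0.050 for Impg2 and 0.051 for Reep6. It gave Impg1 changes of 0.013 and 0.045 for rd10 GSK against wild-type GSK and wild-type saline. On the rod scale Prph2 in rd10 saline was -0.034 without both lens-bearing libraries (-0.0061 to 0.044 without single libraries). In rd10 GSK against rd10 saline Prcd ran from -0.088 to 0.053 and Impg1 from -0.19 to 0.10 without single libraries. Without both lens-bearing libraries Fscn2 against wild-type GSK was 0.022 (-0.12 to 0.017) and Reep6 against wild-type saline was -0.024. Rp1 in wild-type retina ran from -0.020 to 0.037 without single libraries. The log2 ratio of Rp1 to Rp1l1 between the saline groups was 0.020 without both lens-bearing libraries (-0.10 to 0.040 without single libraries), and that of Impg1 to Impg2 in wild-type retina ran from -0.049 to 0.027. The cause was not tested for any of these.

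Replicate numbers did not pair the samples: correlations of same-numbered deviations ran from -0.418 to 0.627, 7 of 15 were above 0.1, and 0 of 11 libraries correlated best with its own number in every group. With the replicate block 10, 10, 0 and 10 of the 10 genes passed in the first 4 comparisons, 38 genes were called in wild-type retina, and Rp1 was at -0.066 there. Every comparison with wild-type saline rests on 2 mice, and intervals cover the spread between these mice only.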

Other observations

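Rbp3, the retinoid-binding protein of the interphotoreceptor matrix, had an rd10 GSK mean above both wild-type means, as did 5 of the other 13 matrix and adhesion genes. By these means alone, Rbp3 was the only 1 of the 6 whose rd10 saline mean was below both. Its log2 change in rd10 GSK was 0.20 ± 0.07 against wild-type GSK (edgeR adjusted p = 0.0631) and 0.23 ± 0.08 against wild-type saline (adjusted p = 0.0596), neither of which passed. In rd10 saline it fell by 1.39 ± 0.08 against wild-type saline (adjusted p = 7.07e-07).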
